A study of Mus musculus with 6 samples.

Results

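Mtrr encodes methionine synthase reductase, the flavoprotein that keeps methionine synthase active by reducing its oxidised cobalamin cofactor. It was followed here with 8 enzymes and subunits of the methionine and folate cycles, namely Mtr, Mat2a, Mat2b, Ahcy, Shmt1, Shmt2, Mthfd1 and Mthfd2. These 9 genes had 10 rows among the 32025 transcript rows of the table, in which 20263 genes were named. They were chosen by gene symbol, with earlier results of these same arrays already known, the difference of Mtrr among them. The differences between the groups are therefore given for these 9 genes as descriptions, without a test.

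The samples were neural stem cells of CD-1 albino mouse embryos at E14.5, grown as proliferating neurospheres, which are floating colonies of stem and progenitor cells. All cells were nucleofected, which is an electrical transfection. The 3 samples of 1 group received a mimic of the microRNA miR-128, and the 3 samples of the other received the control RNA miR-Control. Total RNA was taken 72 h after nucleofection and hybridised to 1 exon array per sample, and the labels call the samples of a group biological triplicates. They do not say whether these came from separate embryos or cultures, so the spread between arrays may be partly technical. The comparison addressed which genes and transcript isoforms differ when miR-128 is introduced into cells that, per the design text, do not normally express it. The share of cells that took up the mimic was not used here, and in such bulk samples fewer cells of a type and less RNA per cell cannot be told apart.

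The methionine cycle makes the methyl donor S-adenosylmethionine and recovers its product. Methionine adenosyltransferase turns methionine into S-adenosylmethionine, methyltransferases use it and release S-adenosylhomocysteine, Ahcy splits that into homocysteine and adenosine, and methionine synthase remethylates homocysteine with a methyl group from folate. The folate cycle supplies the group: serine hydroxymethyltransferases load it onto tetrahydrofolate, and the Mthfd enzymes interconvert the loaded forms in the cytosol and in mitochondria. Dividing progenitors also draw on the folate cycle for purines and thymidylate, and the cycle is known for its role in closure of the neural tube.

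The mature sequence of the 3p arm of miR-128, as RefSeq gives it for GRCm38.p6, is shown because the treated group is named after miR-128. The labels name the mimic only as miR-128, without an arm, so taking this arm as the introduced one is an assumption. The 5p forms that RefSeq also lists are not shown. RefSeq lists the 3p arm with the same sequence at chr1:128202404-128202424 on the plus strand, in Mir128-1, and at chr9:112118644-112118664 on the minus strand, in Mir128-2. The capitals mark the seed, bases 2 to 8. No other mature mouse microRNA of the RefSeq table has this seed.
mmu-miR-128-3p: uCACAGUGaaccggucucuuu

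The table has a row for each of the miR-128 precursor genes, which do not measure a mature mimic. Mir128-1 had log2 levels of 7.40, 7.83 and 8.07 on the control arrays, in the order of their replicate numbers, and 8.02, 8.47 and 7.70 with miR-128. Mir128-2 had 7.84, 7.505 and 9.25 on the control arrays and 8.15, 8.11 and 7.76 on the miR-128 arrays. The groups overlapped in both rows.

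The start site of Mtrr lies head to head with that of another gene, Fastkd3, which encodes a mitochondrial protein of the FASTK family of RNA regulators. In RefSeq's promoter windows for GRCm38.p6, Mtrr starts on the minus strand and Fastkd3 on the plus strand of chromosome 13, with their annotated start sites 41 bases apart and transcription running away from each other. The window of Mtrr, chr13:68582120-68582419 on the minus strand, is printed because the pair is compared below. Capitals mark the 140 bases that it shares with the window of Fastkd3, chr13:68581960-68582259.
Mtrr promoter window: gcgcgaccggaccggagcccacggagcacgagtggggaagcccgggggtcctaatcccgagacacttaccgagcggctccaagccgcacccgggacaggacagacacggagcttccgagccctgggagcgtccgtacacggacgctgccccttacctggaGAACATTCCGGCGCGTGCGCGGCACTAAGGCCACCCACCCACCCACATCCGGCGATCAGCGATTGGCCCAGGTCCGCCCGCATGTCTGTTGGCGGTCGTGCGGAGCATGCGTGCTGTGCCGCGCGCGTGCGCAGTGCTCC
A further window of Mtrr, for a start site 106 bases from that of Fastkd3, is chr13:68582055-68582354. The G and C content was 69.7% in the first window and 70.7% in that of Fastkd3, against a median of 52.7% over all 32851 windows.

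The arrays had median log2 levels of 7.40 to 7.54 in the controls and 7.45 to 7.49 with miR-128. miR-Control replicate 3 stood apart, at 42.5 on a first principal component that carried 35.4% of the variance, with the other arrays between -18.7 and -0.226. Many values below are also given without it. Of 12 neural stem cell markers 11 lay above the array median on all 6 arrays, among them Nes, Sox2, Pax6 and Fabp7, and Prom1 did not. All 5 microglial markers lay below it on all 6 arrays, as did 4 of 5 vascular and mesenchymal markers.

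Markers of other cell types moved with the groups in part. Over 7 markers of the oligodendrocyte lineage the mean log2 level was 7.91 to 8.05 in the controls and 8.17 to 8.29 with miR-128, and 6 of the 7 were higher. Mbp, Mog and Pdgfra were not above the array median on all arrays. Over 6 astrocyte markers it was 8.68 to 8.76 and 8.79 to 8.83, with 4 of the 6 higher and Gfap and Aqp4 not above the median on all arrays. The scale has no zero. The mean over 12 stem cell markers was 10.2 to 10.3 in both groups, with 7 of the 12 higher. Over 8 neuronal markers it was 7.67 to 7.74 in the controls and 7.64 to 7.72 with miR-128, with 4 of the 8 higher. Single markers in these means moved either way, such as Fabp7 at -0.30 and Hes5 at 0.33, or Gap43 at -0.41 and Dcx at 0.24. None of these markers passed in limma. Their part in the values below was not tested.

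Mtrr was lower with miR-128 on every array. Its log2 levels were 9.004, 8.74 and 8.77 on the 3 control arrays, in the order of their replicate numbers, and 7.54, 7.93 and 7.98 on the 3 arrays with miR-128. The highest miR-128 array therefore lay below the lowest control, with replicate 1 of miR-128 the lowest of all. The means were 8.84 ± 0.14 and 7.82 ± 0.24 (SD, n = 3), a log2 difference of -1.02 (standard error 0.14) or 49.2% of the control level. Of the 20263 named genes, each represented by its row of highest mean, 8 lay at or below this difference, Mtrr included. When each array was left out in turn, the difference ranged from -1.103 (without miR-128 replicate 3) to -0.88 (without miR-128 replicate 1), and it was -1.06 without miR-Control replicate 3.

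Over the whole table no row passed an adjusted p of 0.05 in limma, so the share called was 0.0% and 0 of the 10 rows were called. The lowest adjusted p of any row was 0.192. Before adjustment, 997 rows with a lower mean and 1294 with a higher mean had a p under 0.05. Groups that do not overlap are a weaker criterion: in 5.27% of the named genes the miR-128 arrays all lay below the controls, and in 6.87% all lay above. By that criterion 3 of the 9 genes lay below, namely Mtrr, Mat2b and Shmt1, and 0 lay above. Nothing is read from that count, because the same arrays were known when the genes were chosen.

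Mean levels were lower with miR-128 in 8 of the 9 genes, and Ahcy was the exception. The median log2 difference was -0.14 over the 9 genes and also -0.14 over the 8 genes without Mtrr, against 0.02 over all named genes, 43.8% of which were lower. Without miR-Control replicate 3 these medians were -0.22 for the 9 genes and 0.04 for all named genes. All miR-128 arrays then lay below both remaining controls in 6 of the 9 genes, where 13.6% of the named genes did so and 21.2% lay above both. The 6 were Mtrr, Mat2b, Shmt1, Shmt2, Mthfd1 and Mthfd2. Nothing is read from this count either. The genes were chosen with these arrays known, and the array left out was the lowest control in 6 of the 9 genes.

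**Figure D1:**
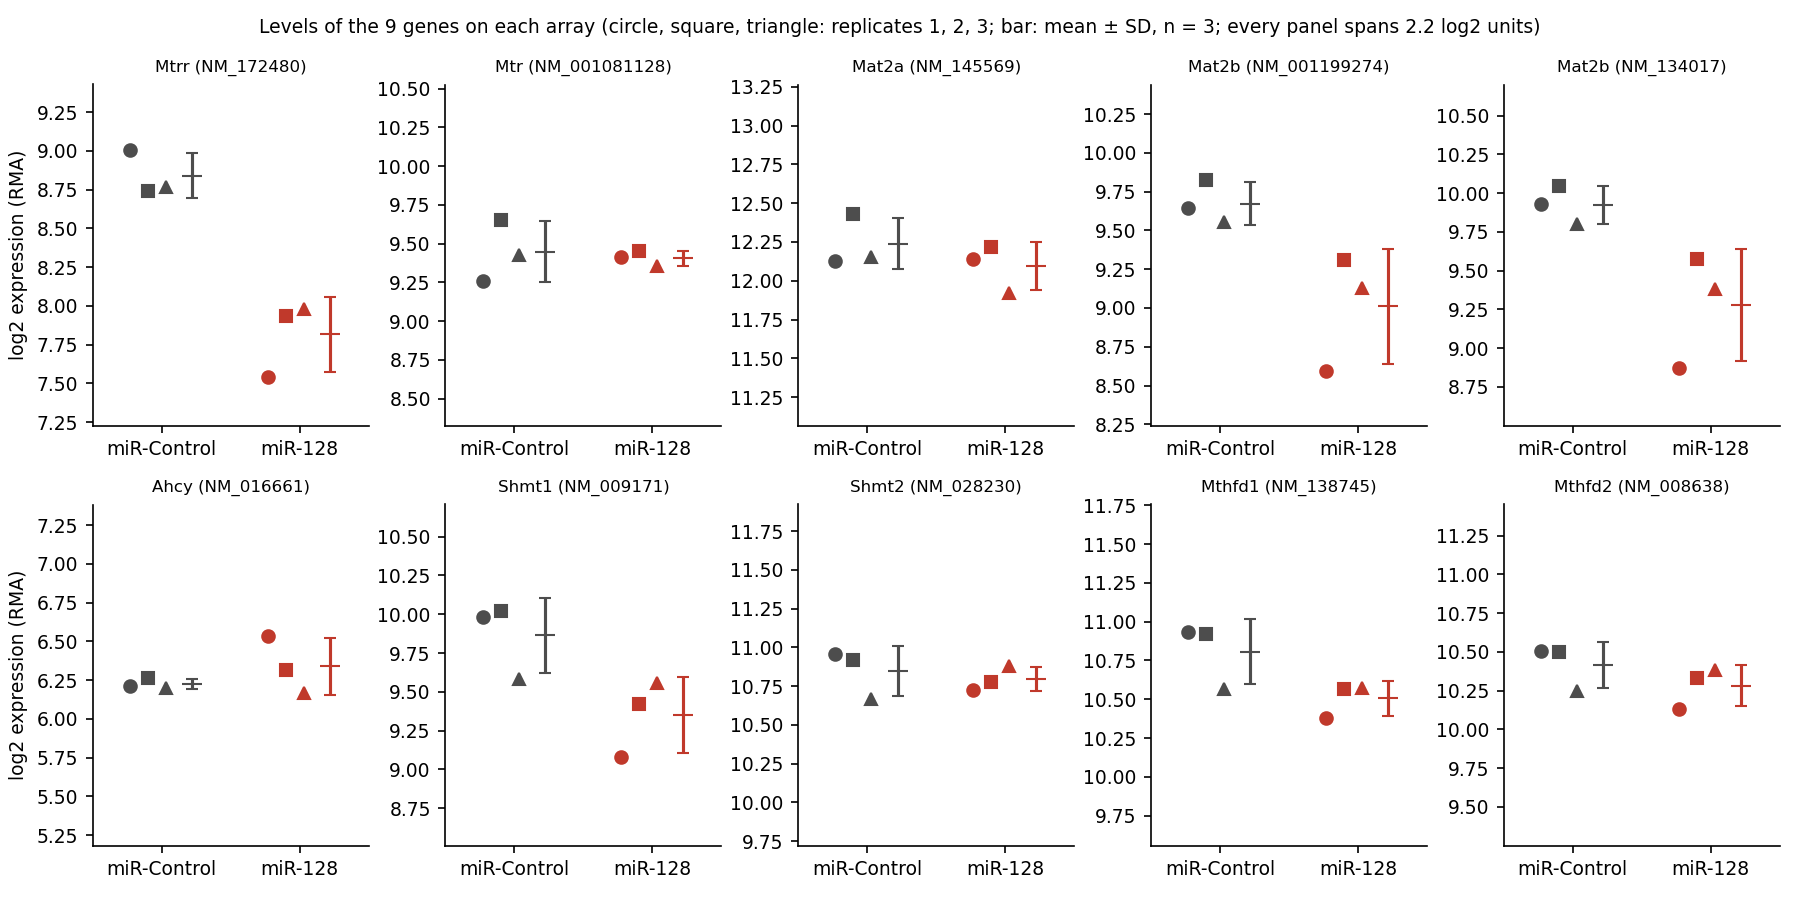
Log2 expression (RMA, vertical axis) of each of the 10 rows on the 6 arrays, with miR-Control in grey and miR-128 in red, and the mean ± SD over 3 arrays beside the points. In Mtrr, Shmt1 and both Mat2b rows all red points lie below all grey points, while the groups overlap in the other 6 rows.

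Within the methionine cycle, the partner that Mtrr serves overlapped between the groups. Mtr, methionine synthase itself, had log2 levels of 9.26, 9.65 and 9.43 on the control arrays and 9.41, 9.45 and 9.35 on the miR-128 arrays. All 3 miR-128 arrays lay within the range of the controls. The means were 9.45 ± 0.20 and 9.41 ± 0.05 (SD, n = 3), a log2 difference of -0.04 (standard error 0.12). Without miR-Control replicate 2 the sign turned, at 0.06, and without miR-Control replicate 1 the difference was -0.13.

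The log2 level of Mtrr minus that of Mtr on the same array, set to 0 at the mean of the controls, was 0.35, -0.30 and -0.05 in the controls. It was -1.26, -0.91 and -0.77 with miR-128, a mean of -0.98 ± 0.26 (SD, n = 3). Such a value compares how far both rows moved, and does not compare their amounts. Here it largely restates the difference of Mtrr, which was known when the genes were chosen.

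Mat2b encodes the regulatory subunit of methionine adenosyltransferase II, and it was the gene among the 9 with the next largest difference. Its row for transcript NM_134017 had log2 levels of 9.93, 10.05 and 9.80 on the control arrays and 8.88, 9.58 and 9.38 on the miR-128 arrays. Every miR-128 array lay below every control, with miR-128 replicate 1 the farthest. The means were 9.92 ± 0.12 and 9.28 ± 0.36 (SD, n = 3), a log2 difference of -0.65 (standard error 0.18) or 63.9% of the control level. The further row, for NM_001199274, had -0.66 (standard error 0.18), and transcripts of a gene can share probes. Leaving out arrays in turn gave -0.80 to -0.45 for the first row, the smallest size without miR-128 replicate 1.

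Mat2a encodes the catalytic subunit that Mat2b binds. Its log2 levels were 12.13, 12.43 and 12.16 on the control arrays and 12.14, 12.22 and 11.92 on the miR-128 arrays, so the groups overlapped. The log2 difference was -0.14 (standard error 0.13), with -0.05 when miR-Control replicate 2 was left out and -0.06 when miR-128 replicate 3 was. Mat2b minus Mat2a on the same array, relative to the controls, was 0.11, -0.07 and -0.04 on the control arrays and -0.95, -0.33 and -0.23 on the miR-128 arrays. In this difference each miR-128 array lay below each control, and its SD was 0.39 with miR-128 against 0.10 in the controls. It largely restates the difference of Mat2b, a gene chosen with these arrays known, and no share over other pairs was computed.

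Ahcy, the hydrolase that clears S-adenosylhomocysteine, had log2 levels of 6.22, 6.26 and 6.20 in the controls. With miR-128 it had 6.53, 6.32 and 6.17, so replicate 1 was high and replicate 3 lay below the controls. The log2 difference of 0.11 (standard error 0.12) became 0.02 when miR-128 replicate 1 was left out and 0.20 when replicate 3 of that group was. It was 0.06 under quantile normalization. All 6 levels of Ahcy lay below the median of their array, which was 7.40 or higher.

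Among the folate enzymes, the cytosolic hydroxymethyltransferase Shmt1 differed most. Its log2 levels were 9.99, 10.02 and 9.59 on the control arrays and 9.08, 9.42 and 9.55 on the miR-128 arrays. The groups did not overlap, but miR-Control replicate 3 and miR-128 replicate 3 were close. The means were 9.86 ± 0.24 and 9.35 ± 0.24 (SD, n = 3), a log2 difference of -0.51 (standard error 0.16) or 70.1% of the control level. It was -0.65 without miR-Control replicate 3 and -0.38 without miR-128 replicate 1.

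Shmt2 carries out the same reaction in mitochondria. Its log2 levels were 10.96, 10.92 and 10.66 on the control arrays and 10.73, 10.78 and 10.88 on the miR-128 arrays. The miR-128 arrays lay between miR-Control replicate 3 and the other controls. The log2 difference was -0.05 (standard error 0.12), which moved to -0.14 when miR-Control replicate 3 was left out and turned to 0.00426 without miR-Control replicate 1. Shmt1 minus Shmt2, relative to the controls, was 0.01, 0.09 and -0.10 on the control arrays and -0.66, -0.38 and -0.35 on the miR-128 arrays.

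Mthfd1, the cytosolic enzyme with 3 activities on folate, had log2 levels of 10.94, 10.92 and 10.57 on the control arrays and 10.38, 10.57 and 10.57 on the miR-128 arrays. Its groups overlapped only through miR-Control replicate 3. The means were 10.81 ± 0.21 and 10.51 ± 0.11 (SD, n = 3), a log2 difference of -0.30 (standard error 0.13), and -0.42 without miR-Control replicate 3.

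Mthfd2, the mitochondrial dehydrogenase and cyclohydrolase that is typical of embryonic and dividing cells, had log2 levels of 10.51, 10.50 and 10.25 on the control arrays and 10.13, 10.33 and 10.38 on the miR-128 arrays. Again miR-Control replicate 3 lay among the miR-128 arrays. The log2 difference was -0.13 (standard error 0.12), with -0.22 when miR-Control replicate 3 was left out and -0.06 when miR-128 replicate 1 was. Mthfd1 minus Mthfd2, relative to the controls, was 0.04, 0.03 and -0.07 on the control arrays and -0.14, -0.16 and -0.20 on the miR-128 arrays, a mean of -0.17 ± 0.03 (SD, n = 3). In both pairs the cytosolic gene lay lower relative to the mitochondrial one on every miR-128 array than on any control. This restates the differences of genes chosen with these arrays known, and no share over other pairs was computed. Mthfd1 and Mthfd2 also do not carry the same set of activities. Nothing about the compartments is read from it.

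**Figure D2:**
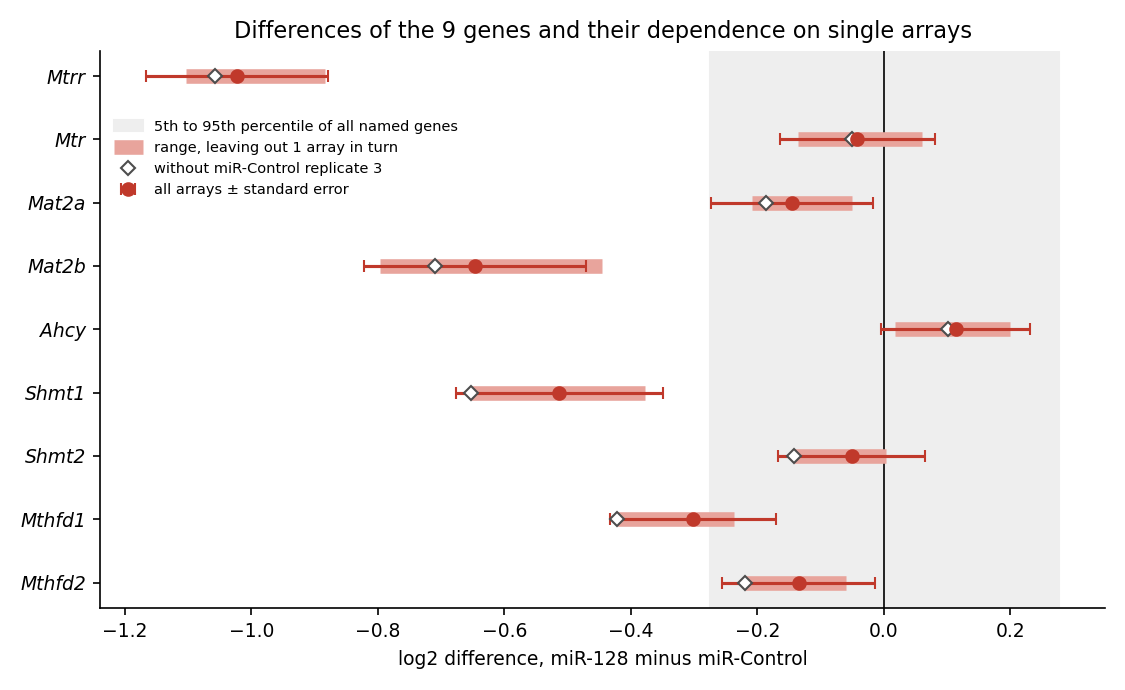
Log2 difference of miR-128 minus miR-Control (horizontal axis) for the 9 genes, each by its row of highest mean: red points with bars are all arrays ± standard error, pale bars the range when 1 array is left out in turn, and open diamonds the value without miR-Control replicate 3. The grey band spans the 5th to 95th percentile of all named genes, -0.27 to 0.28; Mtrr, Mat2b, Shmt1 and Mthfd1 lie left of it.

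The arrays did not contribute alike to the groups of enzymes. For the 4 folate enzymes the mean deviation from the controls' mean was 0.11, 0.11 and -0.22 on the control arrays and -0.40, -0.21 and -0.14 on those with miR-128. miR-Control replicate 3 lay below miR-128 replicates 2 and 3 in this mean. For Mtr, Mat2a, Mat2b and Ahcy it was -0.08, 0.14 and -0.06 on the control arrays and -0.22, -0.07 and -0.25 on the miR-128 arrays. Mtrr alone had 0.17, -0.10 and -0.07 on the control arrays and -1.30, -0.91 and -0.86 on the miR-128 arrays. The mean over all named genes stayed between -0.01 and 0.03 on all 6 arrays. miR-Control replicate 3 was the lowest control in 6 of the 9 genes, and Mtrr, Mtr and Mat2a were the other 3.

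**Figure D3:**
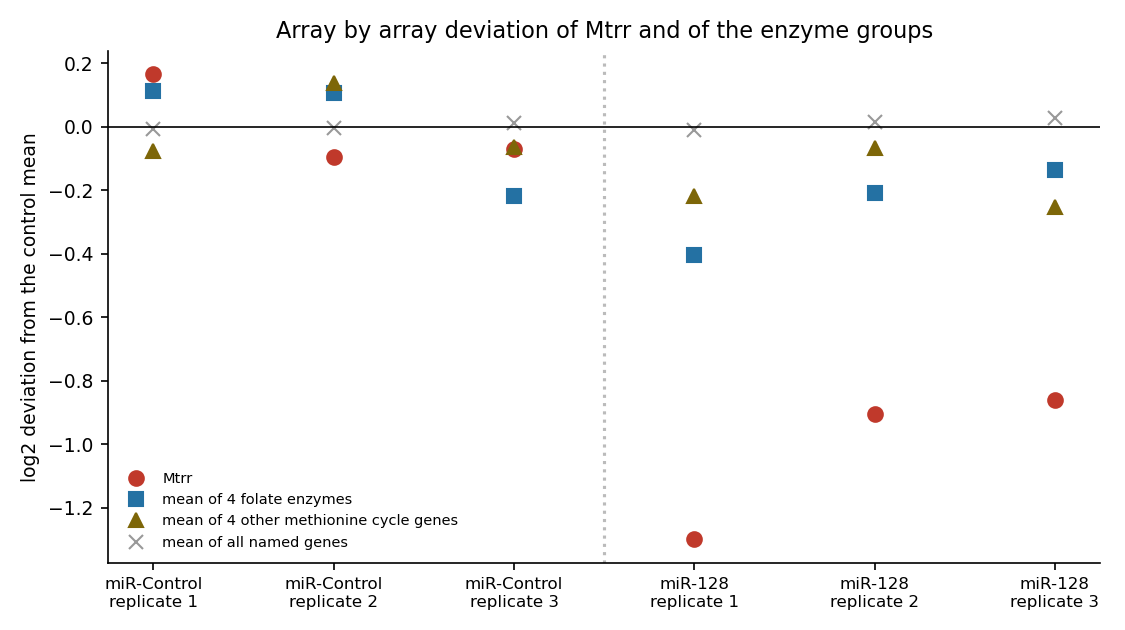
Log2 deviation from the mean of the controls (vertical axis) on each array for Mtrr, for the mean of the 4 folate enzymes, for the mean of the 4 other methionine cycle genes and for the mean of all named genes. Mtrr lies at -0.86 or lower on the miR-128 arrays, while the folate enzymes are at -0.22 on miR-Control replicate 3, below miR-128 replicates 2 and 3.

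The spread between arrays differed among the genes. Pooled over both groups, the SD was 0.13 for Shmt2 and Ahcy, 0.14 for Mtr and Mthfd2, 0.20 for Mtrr, 0.24 for Shmt1 and 0.27 for Mat2b, against a median of 0.15 over all named genes. Divided by that SD, the difference was -5.14 for Mtrr, -2.39 for Mat2b, -2.11 for Shmt1, -1.80 for Mthfd1, -0.40 for Shmt2 and -0.29 for Mtr. The genes with the larger differences, Mat2b and Shmt1, were thus also the more variable ones.

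Fastkd3, the head-to-head neighbour of Mtrr, overlapped between the groups. Its log2 levels were 8.31, 8.32 and 7.67 on the control arrays and 8.08, 8.13 and 7.99 on the miR-128 arrays. miR-Control replicate 3 was the lowest of the 6 arrays and set the wide SD of the controls, 0.37. The log2 difference was -0.03 (95% interval -0.43 to 0.36), with an adjusted p of 0.994 in limma. Without miR-Control replicate 3 it was -0.25, and all miR-128 arrays then lay below both remaining controls. The sign turned without miR-Control replicate 1 or 2, both at 0.07, and, at a smaller size, without miR-128 replicate 3. Mtrr minus Fastkd3, relative to the controls, was -0.05, -0.31 and 0.36 on the control arrays and -1.28, -0.93 and -0.75 on the miR-128 arrays. In this difference each miR-128 array lay below each control, a mean of -0.99 ± 0.27 (SD, n = 3). It largely restates the difference of Mtrr, which was known beforehand, and no share over other pairs was computed.

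**Figure D4:**
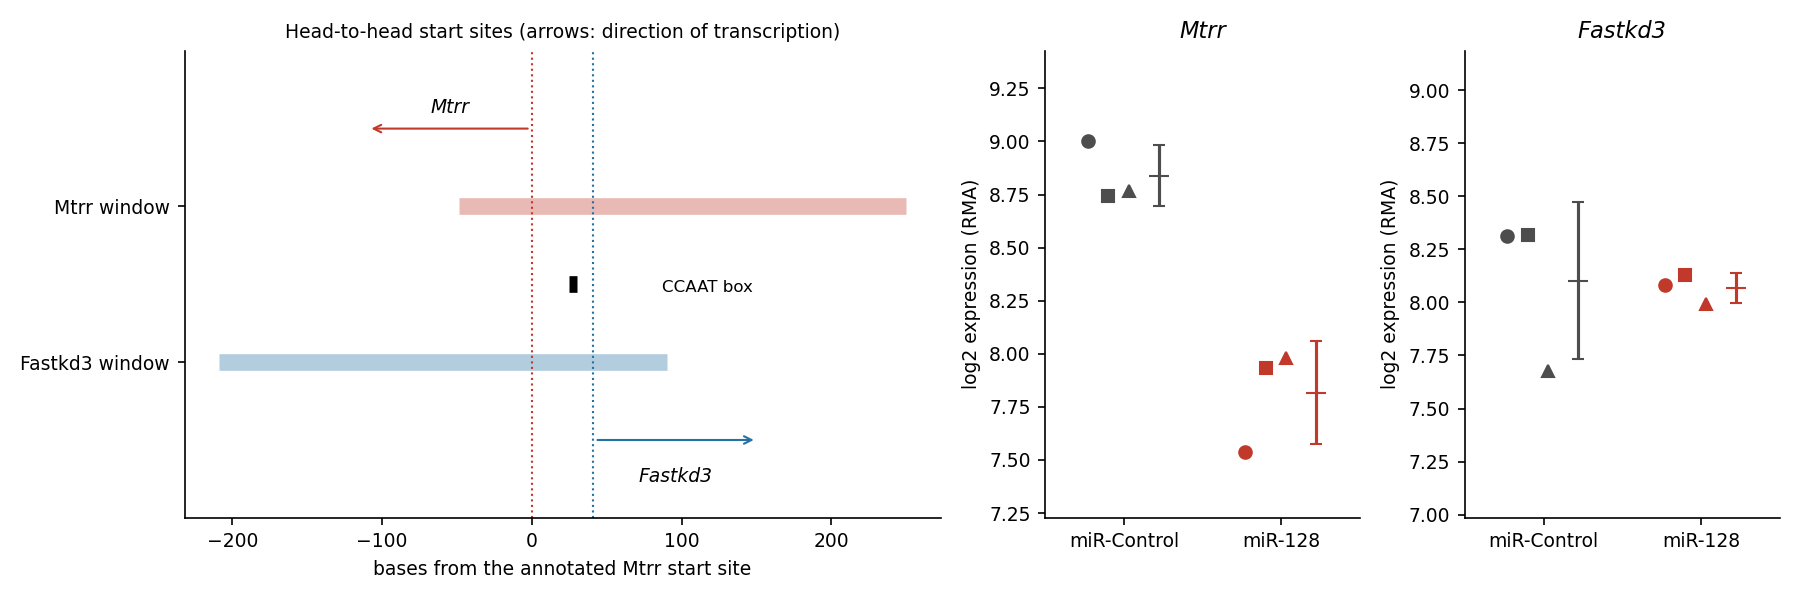
The left panel maps the RefSeq promoter windows of Mtrr and Fastkd3 in bases from the annotated Mtrr start site, with arrows in the direction of transcription, dotted lines at the start sites 41 bases apart and the CCAAT box between them. The other panels give log2 expression (RMA) on each array with mean ± SD over 3 arrays: the groups separate for Mtrr and overlap for Fastkd3. The overlap for Fastkd3 rests on miR-Control replicate 3 alone.

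Promoter windows were searched on both strands for 5 short motifs known from genes of growth and metabolism. The CCAAT box, read as CCAAT or as ATTGG, was in a window of 8 of the 9 genes, Shmt2 being the exception, where 41.1% of all 27025 genes with a window had it. The stretches below are shown because this is the feature most of the 9 genes share, in genes with large and with small differences alike. They are written along each gene's strand, with the box nearest the start site in capitals. Mtrr and Fastkd3 share 1 and the same box, which begins at -29 from the start site of Mtrr and at -16 from that of Fastkd3, negative values lying before the start. The box begins at -19 in Mat2b, -47 in Shmt1, -22 in Mthfd2, -69 in Mthfd1, -89 in Mat2a, -101 in Mtr and -237 in Ahcy.
Mtrr, chr13:68582181-68582211, minus strand: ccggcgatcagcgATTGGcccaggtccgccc
Mat2b, chr11:40692684-40692714, minus strand: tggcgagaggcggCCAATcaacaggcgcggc
Shmt1, chr11:60811295-60811325, minus strand: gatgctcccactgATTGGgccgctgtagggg
Mthfd1, chr12:76255150-76255180, plus strand: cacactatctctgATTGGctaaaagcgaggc
Mthfd2, chr6:83317609-83317639, minus strand: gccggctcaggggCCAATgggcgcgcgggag
Mat2a, chr6:72439628-72439658, minus strand: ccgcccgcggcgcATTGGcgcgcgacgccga
Mtr, chr13:12258197-12258227, minus strand: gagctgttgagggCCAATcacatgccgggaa
Ahcy, chr2:155074717-155074747, minus strand: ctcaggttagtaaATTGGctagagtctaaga

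The ETS motif CCGGAAG was in the windows of Mat2b and Shmt2, where 9.93% of all genes had it, and GCATGCGC, part of the NRF1 motif, in that of Shmt2, where 3.05% had it. The latter overlaps itself on the other strand there. The E-box CACGTG, in 8.09% of all genes, and the amino acid response motif TGATGNAA, in 4.51%, were in a window of 0 of the 9. These letters are matches in a short window, and no test related them to the expression values.

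By likeness of pattern, the genes nearest to Mtrr were those of its own size of difference, which the measure largely requires. The values were not scaled, so the ranks mostly restate the size of each gene's difference. Each gene's 6 array values were taken minus their own mean, and the root mean square distance to the values of Mtrr was computed for 20262 genes. The 5 nearest were D8Ertd738e at a distance of 0.09 log2 units, Ndufa2, a subunit of respiratory complex I, at 0.10, Polr1b, a subunit of RNA polymerase I, at 0.11, Gpatch4 at 0.12 and the small nucleolar RNA host transcript Snhg12 at 0.12. D8Ertd738e, for example, had log2 levels of 9.93, 9.70 and 9.66 on the control arrays and 8.32, 9.02 and 8.97 on the miR-128 arrays. Among the 8 other enzymes Mat2b ranked 49 at a distance of 0.24, Shmt1 ranked 105 at 0.29 and Mthfd1 ranked 446 at 0.38. Mtr ranked 8236 at 0.55 and Ahcy 16728 at 0.62.

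Other genes of the pathway were taken from 9 lists of folate, methionine, cobalamin and methyl transfer genes, none of them among the 9. The lists, too, were chosen with earlier results of these data known. Of 78 listed genes 75 had a row, and 0 passed an adjusted p of 0.05 in limma over all rows, where the smallest adjusted p was 0.424. Before adjustment 8 had a p under 0.05, of which 6 were lower and 2 higher with miR-128. In all, 38 were lower and 37 higher, with a median log2 difference of -0.000252 against 0.02 over all named genes. In 7 of the 75 genes the miR-128 arrays all lay below the controls, and in 5 above, against 5.27% and 6.87% of all named genes. Without miR-Control replicate 3 the median was -0.07, against 0.04 over all named genes. Then 19 of the 75 lay below both remaining controls and 13 above, against 13.6% and 21.2% of all named genes. From each list the 2 genes of smallest p are named below, and Por besides. Their 95% intervals are per row and unadjusted, so intervals that leave out 0 follow in part from that choice.

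Of 15 other folate cycle enzymes 7 were lower and 8 higher, with a median of 0.01 that turned to -0.09 without miR-Control replicate 3. Gart, an enzyme of purine synthesis that uses formyl folate, had log2 means of 10.54 ± 0.26 and 10.15 ± 0.26 (SD, n = 3), a difference of -0.39 (adjusted p = 0.698 in limma), and -0.24 without miR-128 replicate 1. Tyms, thymidylate synthase, was at -0.34 (95% interval -0.60 to -0.08, adjusted p = 0.581 in limma), with all miR-128 arrays below the controls.

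The 4 genes of the glycine cleavage system, a mitochondrial source of folate-bound carbon, were all lower, with a median of -0.21, and -0.30 without miR-Control replicate 3. Gcsh, its lipoyl carrier protein, was at -0.42 (95% interval -0.73 to -0.11, adjusted p = 0.556 in limma), and its groups did not overlap. Gldc, the glycine decarboxylase, had log2 levels of 10.40, 9.97 and 9.74 on the control arrays and 9.66, 9.73 and 9.96 on the miR-128 arrays, a difference of -0.25 (adjusted p = 0.871). Without miR-Control replicate 1 it was -0.07 and without miR-Control replicate 3 it was -0.40.

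Of 7 other methionine cycle genes 3 were lower and 4 higher. Mettl16, an RNA methyltransferase known in human cells to control Mat2a messenger RNA, was at -0.27 (95% interval -0.57 to 0.04, adjusted p = 0.759 in limma), and -0.15 without miR-Control replicate 2. Ahcyl1, a relative of Ahcy, was at 0.19 (adjusted p = 0.797). In methionine salvage and polyamine synthesis 6 of 8 were lower (median -0.03, and -0.17 without miR-Control replicate 3), among them the salvage enzymes Enoph1 at -0.35 (95% interval -0.62 to -0.08, adjusted p = 0.579) and Apip at -0.19 (adjusted p = 0.871). Enoph1 is given by a row of a noncoding transcript, and its rows of coding transcripts were at -0.44 and -0.43 (adjusted p = 0.428 and 0.454 in limma). Apip ranged from -0.28 (without miR-Control replicate 3) to -0.10 (without miR-128 replicate 3). Cbs and Cth, which divert homocysteine to cysteine, were at 0.06 and 0.16 (adjusted p = 0.979 and 0.897), and leaving out 1 array in turn gave -0.00603 (without miR-Control replicate 1) to 0.16 (without replicate 3) for Cbs. For Cth it gave 0.08 (without miR-Control replicate 3) to 0.26 (without replicate 2).

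Of 10 genes of cobalamin handling, which feeds the cofactor that Mtrr reduces, 7 were lower and 3 higher. Lmbrd1, which exports cobalamin from lysosomes, had log2 levels of 10.30, 10.37 and 9.99 on the control arrays and 10.67, 10.73 and 10.53 on the miR-128 arrays. All miR-128 arrays lay above all controls, with miR-Control replicate 3 the lowest. The difference was 0.42 (95% interval 0.13 to 0.71, adjusted p = 0.515 in limma), and 0.31 without that array. Mmaa, which guards the mitochondrial cobalamin enzyme, was at -0.24 (adjusted p = 0.755), and -0.14 without miR-Control replicate 2.

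The 5 diflavin reductases related to Mtrr were at 0.03 to 0.11, with Por, the electron donor of microsomal cytochromes P450, at 0.07 (95% interval -0.23 to 0.37, adjusted p = 0.983 in limma), with -0.01 (without miR-128 replicate 3) to 0.18 (without replicate 2) when 1 array was left out. Ndor1 was at 0.11 (adjusted p = 0.925) and Nos2 at 0.06 (adjusted p = 0.972), the latter at 0.03 without miR-Control replicate 2. Of 5 folate carriers and receptors 2 were lower and 3 higher, with Folr2 at 0.19 (adjusted p = 0.786) and Folr1 at 0.08 (adjusted p = 0.962). Folr1 ranged from 0.03 (without miR-Control replicate 1) to 0.16 (without replicate 3), and the median of the 5 turned from 0.07 to -0.04 without miR-Control replicate 3.

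Of 19 methyltransferases that consume S-adenosylmethionine 9 were lower and 10 higher, with a median of 0.00172. Without miR-Control replicate 3 that median was -0.08. Then 5 of the 19 lay below both remaining controls and 2 above, against 13.6% and 21.2% of all named genes. Prmt1, the main arginine methyltransferase, had log2 levels of 11.25, 11.27 and 11.55 on the control arrays and 10.59, 11.004 and 10.82 on the miR-128 arrays. The groups did not overlap. Its difference was -0.55 (95% interval -0.86 to -0.23, adjusted p = 0.424 in limma), the lowest p of the 75 genes. Hnmt, histamine methyltransferase, was at 0.35 (95% interval 0.12 to 0.58, adjusted p = 0.479). On all 6 arrays Hnmt lay below the array median, as did Folr2, Nos2 and Cbs.

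**Figure D5:**
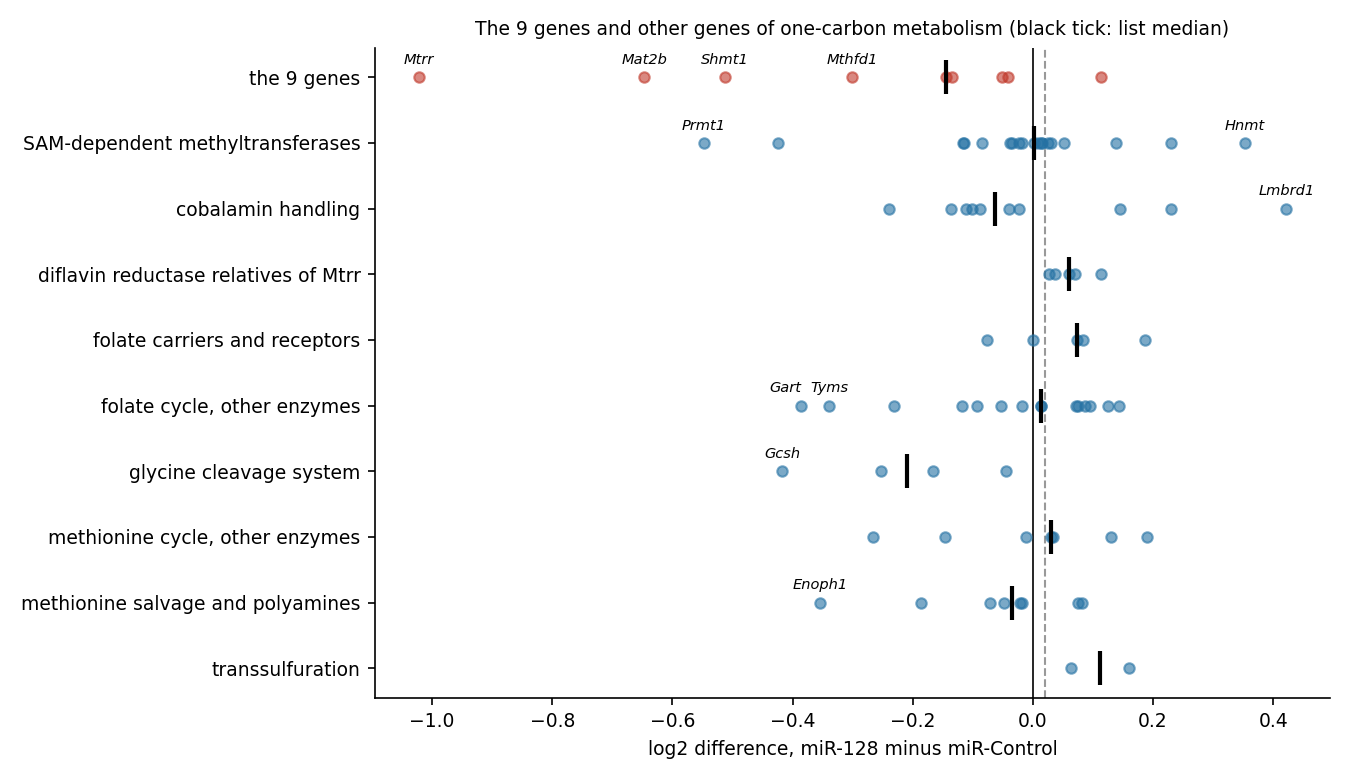
Log2 difference of miR-128 minus miR-Control (horizontal axis) for the 9 genes in red and for 9 lists of other genes of the pathway in blue, 1 point a gene, with list medians as black ticks and the median of all named genes, 0.02, as a dashed line. Mtrr at -1.02 is the lowest point, the lowest of the other genes is Prmt1 at -0.55, and the highest is Lmbrd1 at 0.42.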

How the data were processed

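The 6 arrays were deposited as 1 table of log2 values per RefSeq transcript, which the authors, per the submitters' processing notes, made with RMA in the affy package. Versions, probe grouping and genome build were not given in the sources used here. RMA fold sizes tend to be smaller than true ratios, and no detection p was used, so signal over background is unknown. The number of arrays limits the precision.

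Rows were named by unversioned RefSeq accession (GRCm38.p6 table, used for names), 25343 of 32025 rows. The row of highest mean stood for a gene. limma 3.58.1 (R 4.3.3; lmFit, eBayes) compared the groups unpaired, two-sided, with Benjamini-Hochberg adjustment over all 32025 rows. Standard errors come from that fit and SDs from 3 arrays. The fit was tested on simulated data. Groups and replicate numbers come from the sample titles.

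The 9 genes, the lists, the motifs and the naming rule were chosen with earlier results of these data known. Genes outside the 9 were named as the 2 of smallest p of each list, plus Tyms, Mettl16, Por, Fastkd3 and others that are not reported here, and the 5 nearest to Mtrr. Sequences are RefSeq's, and all 9 genes had a promoter window. Sites of miR-128 in transcripts were not analysed here. Alternatives were quantile normalization, median centring, a trended and robust variance, array weights, a level filter, no repeated rows, another row per gene, the replicate number as a block, and leaving out each array.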

Additional observations from a re-analysis of the deposited data

How the results depend on the processing

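The number of rows called, 0, was unchanged under quantile normalization, median centring, a trended and robust variance, without repeated rows, with the replicate block and without any 1 array. It was 4 among the 16012 rows above the median level, 0 of them from the 9 genes, and 24 under array weights, 1 of them the row of Mtrr, in the contrast that chose it; the cause was not tested. None of the 75 other pathway genes was called under any of these, nor by the row of smallest p of each gene. Whether the replicate numbers pair the samples is not settled here. Arrays with the same number deviated from their group means with correlations of -0.00278, 0.17 and 0.05. Those with unlike numbers had -0.24 to 0.19, and so few arrays cannot decide it. With the replicate block the difference of Mtrr stays at -1.02 by construction, since each number occurs once in each group. Only its error could change. Each of the 9 genes moved by less than its SD under quantile normalization and under median centring. Leaving out an array cannot shift a difference that far with these group sizes, so those settings were no test of this. The replicate block could not move it either, and a mean over rows changed only Mat2b, by less than its SD. The sign turned for Mtr without miR-Control replicate 2 (0.06) and for Shmt2 without miR-Control replicate 1 (0.00426). The shift of the median row was 0.02 before and -0.00575 after median centring.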
